A study of Homo sapiens with 6 samples.

Results

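The intermediate filament genes described here are NEFL, NEFM, NEFH, INA, VIM, NES, KRT8, KRT18, LMNA and LMNB1, 10 of 60609 genes in tables from HEK293 cells, an established human embryonic kidney line. They were chosen as a family, by gene symbol, and the family was picked for the fall of NEFM in STAT5B knockout against wild-type cells, so NEFM is described without a test. All 10 passed the filter on low counts, as 15958 genes did. RNA sequencing of mRNA libraries covered 3 knockout (KO) samples, HEK293 carrying a CRISPR/Cas9 knockout of STAT5B, and 3 wild-type (WT) samples of HEK293. Per the labels, knockout clones with both alleles mutated were picked by sequencing and protein blot, and the culture text also names GS knockout clones without explaining the term. Each experiment was done in triplicate, but the labels do not state that the 3 libraries of a group are separate cultures. The p-values below therefore cover the spread between these samples alone, which may be technical. Effects of clone picking and effects of losing STAT5B cannot be told apart.

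Intermediate filaments are rope-like polymers of coiled-coil proteins, and each cell type builds its own mixture. Neurofilaments of axons are assembled from the light, medium and heavy chains NEFL, NEFM and NEFH together with alpha-internexin (INA). Vimentin is typical of mesenchymal and cultured cells, nestin of progenitors and the keratin pair KRT8 and KRT18 of simple epithelia, while the lamins form the meshwork under the nuclear envelope. HEK293 cells are of kidney origin but are known to carry neuronal transcripts. STAT5B is a transcription factor that is activated by JAK kinases.

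Total estimated counts ran from 17494958 to 21099813 in KO libraries and from 17686407 to 20279181 in WT libraries. The targeted gene, STAT5B, had 63.1, 61.8 and 60.5 CPM (counts after scaling each library to 1000000) in KO cells, against 70.1, 64.6 and 69.4 CPM in WT cells. The log2 fold change of STAT5B was −0.14 (SE 0.047), and its adjusted p by edgeR was 0.0468. The two-sided exact permutation p was 0.1, which is the smallest value possible with 3 KO and 3 WT libraries. In 12 of 16 alternative settings the adjusted p missed the threshold of 0.05, and a count over a whole gene does not show a small mutation, so this value does not check the genotype. As to the labelled cell type, 8 of 13 kidney markers passed the low-count filter, and their summed level was 168 to 173 CPM in KO and 167 to 178 CPM in WT, with CDH16 and UMOD, genes of mature tubules, at 0 counts in every library. None of 10 adrenal markers passed the filter. The 11 blood and endothelial markers summed to 1.53 to 2.40 CPM in KO and 1.73 to 2.37 CPM in WT, with PTPRC, CD3E, HBB, CDH5 and TEK at 0 counts.

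The family spanned about 3 orders of magnitude in level, and its order by mean level was the same in KO and WT. On TPM, which divides by transcript length and so allows genes to be compared, vimentin was the most abundant, at 609.9 ± 19.4 TPM in KO and 598.9 ± 7.68 TPM in WT (SD, n = 3 each). LMNB1 followed at 217 ± 8.75 TPM in KO and 254 ± 5.70 TPM in WT. NEFM came after these in both groups, but its KO values of 90.0 to 106 TPM overlapped the KO range of KRT18, 82.9 to 93.6 TPM, whereas its WT values of 222 to 238 TPM stood clear of KRT18 at 87.7 to 96.0 TPM. NEFL and INA came next, with NEFL at 60.3 ± 1.18 TPM in KO and 61.7 ± 1.26 TPM in WT and INA at 53.4 ± 2.12 TPM in KO and 56.2 ± 3.78 TPM in WT. LMNA and KRT8 followed, and NES and NEFH closed the order below 1 TPM in every library. In WT cells the NES and NEFH ranges overlapped, so these neighbours in the order did not differ beyond their spread. All other neighbours in the order were apart in both groups, NEFM and KRT18 in KO excepted. In bulk samples, fewer cells of a type and less RNA per cell cannot be told apart.

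**Figure D1:**
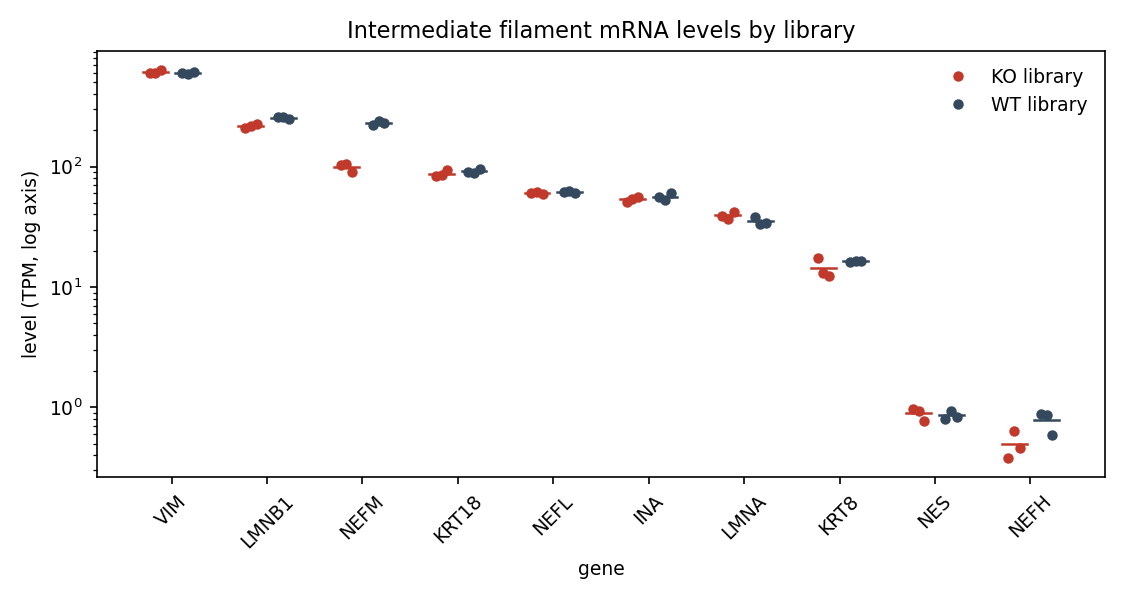
Level of each gene in TPM on a log axis, with 1 point per library (KO left, WT right of each gene) and a line at the mean of 3 libraries. NEFM shows the widest gap between groups among the abundant genes, 90.0 to 106 TPM in KO and 222 to 238 TPM in WT, while VIM, NEFL and INA points lie at nearly the same height in both groups.

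NEFM, the medium neurofilament chain that lends spacing arms to the filament, was lower in every KO library than in any WT library, and its KO mean was 0.4535 of its WT mean in the edgeR fit. Counts were 3614, 4394 and 3136 in KO libraries and 7440, 8619 and 8982 in WT libraries. On the scaled libraries this is 205, 211 and 179 CPM in KO cells and 419.8, 452 and 442 CPM in WT cells, with means of 198.5 ± 16.9 CPM in KO and 438 ± 16.5 CPM in WT (SD, n = 3 each). The groups were far apart, and KO replicate 3 was the lowest library. The NEFM log2 fold change was −1.14 (SE 0.051), and it ranged from −1.21 to −1.08 over 16 alternative settings. Of 2443 genes with a mean of at least 100 CPM, 0 had a log2 fold change below that of NEFM, and of all 15958 genes 80 did. These values chose the family and carry no test.

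NEFL, the light chain on which neurofilaments are built, lies beside NEFM on chromosome 8 and did not pass the test. NEFM occupies chr8:24913012-24919098 on the plus strand and NEFL chr8:24950955-24957110 on the minus strand (hg38), so 31.9 kb separate the gene bodies. NEFL had 109.6, 113 and 111 CPM in KO cells, against 107, 105 and 106 CPM in WT cells. This is a log2 fold change of 0.066 (SE 0.035, adjusted p = 0.190 by edgeR). The CPM ranges of the groups did not touch, yet those of TPM overlapped, at 59.1 to 61.4 TPM in KO and 60.6 to 63.1 TPM in WT. The sign of the change turned on log2(TPM + 1) (−0.034, limma adjusted p = 0.664), where the median of all genes tested was itself −0.059. INA, the alpha-internexin chain that co-assembles with the triplet, had 95.2, 101 and 101.5 CPM in KO cells, against 97.9, 91.6 and 105 CPM in WT cells. The INA groups overlapped, at a log2 fold change of 0.018 (SE 0.049, adjusted p = 0.833 by edgeR). NEFH, the heavy chain of mature large axons, was near the lower end of what was tested. It had 15, 30 and 18 counts in KO libraries and 33, 35 and 25 in WT libraries, and KO replicate 2 lay inside the WT range. At a log2 fold change of −0.55 (SE 0.306, adjusted p = 0.223 by edgeR), a difference in NEFH was not detectable at this depth.

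The mixture of neurofilament chain transcripts held less NEFM in KO cells. It made up 48.0%, 47.7% and 43.9% of the summed TPM of NEFL, NEFM, NEFH and INA in KO libraries, and 65.2%, 67.1% and 65.6% in WT libraries. The TPM ratio of NEFM to NEFL was 1.71, 1.72 and 1.52 in KO cells and 3.61, 3.77 and 3.82 in WT cells. The summed level of the 4 chains was 213.8 ± 8.14 TPM in KO and 349 ± 7.46 TPM in WT (SD, n = 3 each), whereas NEFL, NEFH and INA together came to 114 ± 1.95 TPM in KO and 119 ± 2.40 TPM in WT. These shares all contain NEFM and are given without a test. A share that leaves NEFM out, NEFL in the sum of NEFL and INA, was 53.0% ± 1.30 in KO and 52.4% ± 2.18 in WT (SD, n = 3 each), with a two-sided exact permutation p of 0.7 (0.875 adjusted by Benjamini-Hochberg over 5 such shares).

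**Figure D2:**
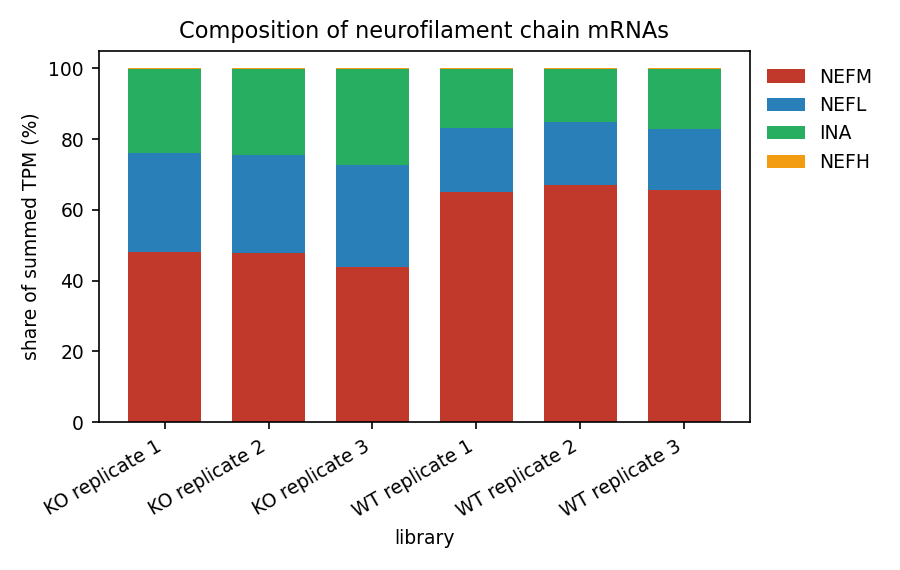
Share of each chain in the summed TPM of NEFM, NEFL, INA and NEFH, in percent, 1 bar per library with KO libraries left of WT libraries. The NEFM part takes 43.9% to 48.0% of a KO bar and 65.2% to 67.1% of a WT bar, and NEFH is too small to be seen as more than a line.

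The genes around NEFM did not all move one way. Of 23 other tested genes within 2 Mb, 4 rose and 2 fell by edgeR, where 12.1% of all genes rose and 11.4% fell. These 23 had a median of 0.055 on the log2 scale, and the other tested genes of chromosome 8 had a median of 0.00041. One of the 2 that fell overlaps NEFM itself. It is an unnamed antisense gene (ENSG00000272163, chr8:24912165-24914717, minus strand, hg38), named after its values were seen, with 80, 74 and 70 counts in KO libraries and 124, 118 and 126 in WT libraries. Its CPM ranges did not overlap between groups, and it was lower by a log2 fold change of −0.68 (SE 0.147, adjusted p = 0.00404 by edgeR). No source used here says whether counting used strand, so reads of NEFM and of this gene cannot be told apart where they overlap. Its counts are few beside those of NEFM.

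**Figure D3:**
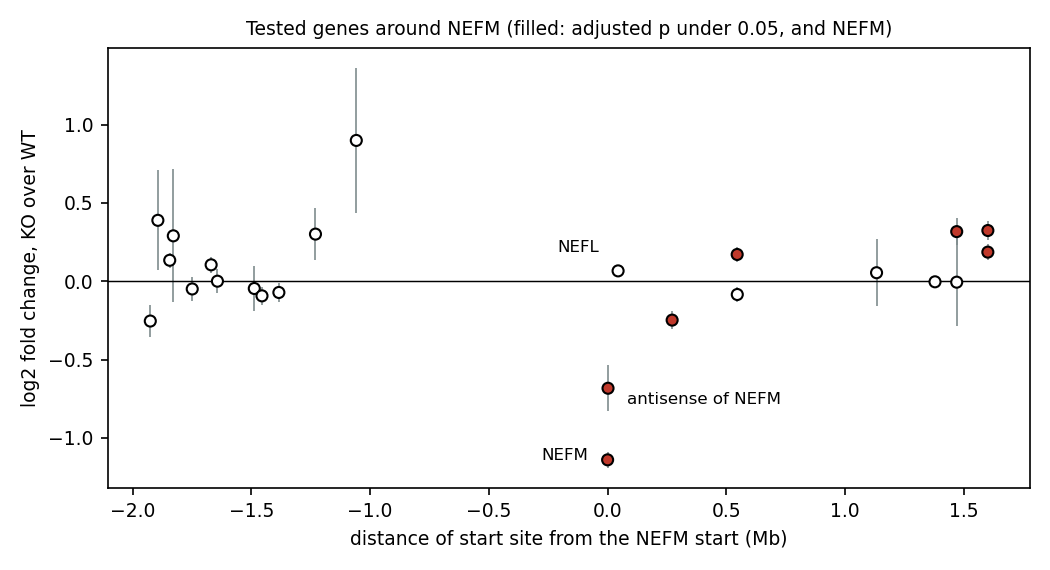
Log2 fold change (KO over WT, bars SE) of tested genes against the distance of their start site from that of NEFM in Mb, with filled points for NEFM and where edgeR gave a p of less than 0.05 after adjustment. NEFM at −1.14 and its antisense gene at −0.68 lie below the rest, while NEFL stands at 0.066 beside them.

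By the distance of their centred log2 CPM over the 6 libraries, the genes most like NEFM were CNTLN, HOXA-AS3, RFC3, ESCO2 and FAT3, out of 11147 genes with a mean of at least 5 CPM. CNTLN, a centrosomal protein, was nearest, with a root mean square distance of 0.0965 on the log2 scale and a level of 13.7 ± 1.47 CPM in KO and 27.5 ± 2.26 CPM in WT (SD, n = 3 each). HOXA-AS3, a noncoding transcript from among the HOXA genes, RFC3, a subunit of the replication clamp loader, ESCO2, a cohesin acetyltransferase, and FAT3, an atypical cadherin, followed at 0.119, 0.125, 0.140 and 0.176. They were chosen for this likeness, and their log2 fold changes lay between −0.87 for ESCO2 and −1.36 for HOXA-AS3.

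Among the other 9 members, VIM and LMNA rose, LMNB1 fell and 6 did not pass the test. That is 33.3% called, against 23.4% of all genes tested, and 2 rises and 1 fall against 12.1% and 11.4% of all genes, so the share called was near the background. The median log2 fold change of the 9 was 0.018, and that of all genes tested 0.0063. CPM ranges did not overlap for 4 of the 9, NEFL, VIM, LMNA and LMNB1, as for 38.6% of all genes. Without NEFM the members summed to 1083 ± 33.9 TPM in KO and 1116 ± 9.20 TPM in WT (SD, n = 3 each). In CPM they summed to 1297 to 1346 in KO and 1285 to 1320 in WT, and the groups overlapped on both scales.

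**Figure D4:**
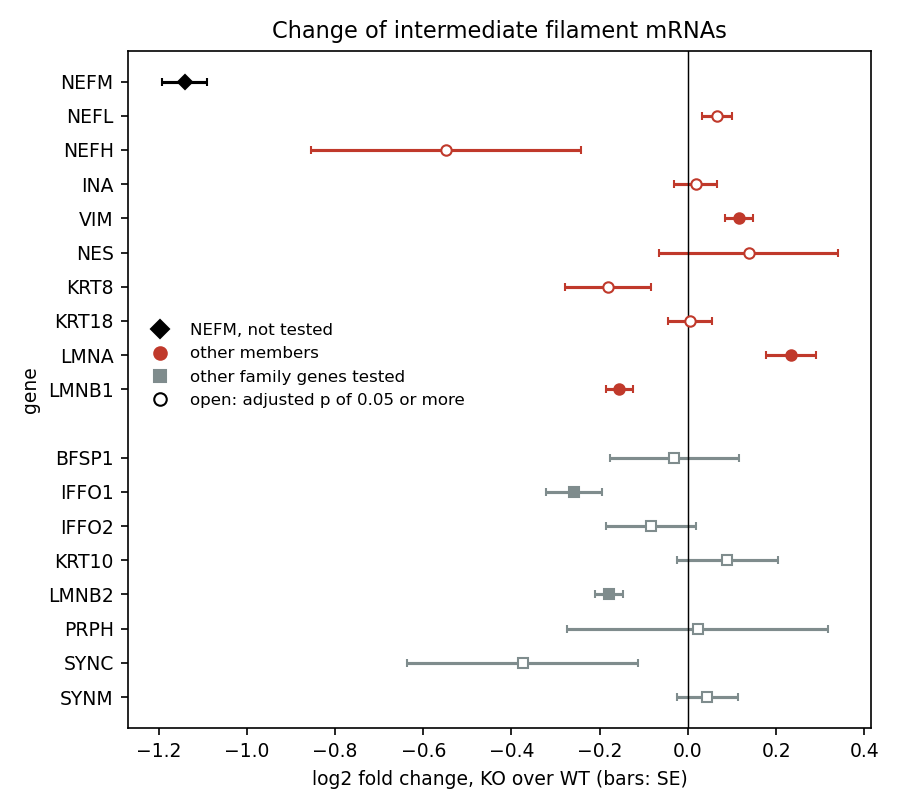
Log2 fold change (KO over WT) with its SE for the 10 members above and for the 8 other family genes tested below, filled where the edgeR adjusted p is under 0.05 and as a diamond for NEFM, which has no test. NEFM stands at −1.14, and all the other genes lie between −0.55 and 0.23.

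Vimentin (VIM), the filament of cultured and mesenchymal cells, had 628, 639 and 655 CPM in KO cells, against 589.8, 584 and 599.7 CPM in WT cells. Every KO library lay above every WT library in CPM, by a log2 fold change of 0.12 (SE 0.031, adjusted p = 0.0150 by edgeR), and TPM ranges overlapped. VIM missed the threshold when effective length entered the fit (adjusted p = 0.107), with length and GC offsets (0.114) and without WT replicate 1 or 2 (0.0671 and 0.0752). On log2(TPM + 1) its log2 fold change was 0.026 (limma adjusted p = 0.683), and with any 1 KO library left out it still passed. Reads from the antisense gene VIM-AS1, with 62 to 86 counts in KO and 65 to 91 in WT, are few beside the 10453 to 13317 of VIM. Nestin (NES), the filament of neural and other progenitors, was at the lower end, with 55, 64 and 44 counts in KO libraries and 44, 55 and 52 in WT libraries. The NES groups overlapped, at a log2 fold change of 0.14 (SE 0.202, adjusted p = 0.679 by edgeR).

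KRT8 and KRT18, the type II and type I keratins that polymerise as an obligate pair, did not pass the test. KRT8 had 14.6, 12.2 and 12.2 CPM in KO cells, against 13.4, 15.5 and 15.2 CPM in WT cells, with KO replicate 1 inside the WT range. The KRT8 log2 fold change was −0.18 (SE 0.097, adjusted p = 0.201 by edgeR). KRT18 had 61.6, 64.4 and 67.3 CPM in KO cells, against 62.4, 62.8 and 67.2 CPM in WT cells, and its groups overlapped at a log2 fold change of 0.0052 (SE 0.050, adjusted p = 0.956 by edgeR). The transcripts were far from equal, with a KRT18 level 4.74, 6.58 and 7.54 times that of KRT8 in KO libraries and 5.64, 5.29 and 5.80 times in WT libraries, on TPM. The KRT8 share of the pair was 14.1% ± 2.97 in KO and 15.2% ± 0.62 in WT (SD, n = 3 each; two-sided exact permutation p = 0.6, and 0.875 adjusted over 5 shares). KRT8 and KRT18 overlap at their gene starts on opposite strands of chromosome 12 and have many processed pseudogenes, so their counts are uncertain. The pseudogenes named after KRT8 held 24.2% of the counts assigned to KRT8 or to them, and those named after KRT18 held 5.20%. The KRT8 transcript length that enters its TPM, as deposited, also varied from 1509 to 1750 bases between libraries, and was shortest in KO replicate 1, where the KRT8 TPM was highest.

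The lamins of the nuclear envelope changed in both directions, by at most 0.23 on the log2 scale. LMNA, the A-type lamin of differentiated and stiff tissues, had 51.6, 51.4 and 56.7 CPM in KO cells, against 47.0, 43.0 and 45.7 CPM in WT cells. The LMNA groups were apart in CPM and overlapped in TPM, with a log2 fold change of 0.23 (SE 0.056, adjusted p = 0.00799 by edgeR). LMNA missed the threshold when effective length entered the fit (adjusted p = 0.0881) and on log2(TPM + 1), where its log2 fold change was 0.15 (limma adjusted p = 0.234). LMNB1, a B-type lamin of proliferating cells, had 332.5, 343 and 339 CPM in KO cells, against 373.5, 378 and 378 CPM in WT cells. All KO libraries were lower in CPM and in TPM, by a log2 fold change of −0.15 (SE 0.030, adjusted p = 0.00173 by edgeR). LMNB1 passed in 16 of 16 alternatives, which leave out the test against a 1.2-fold change. LMNB2, the other B-type lamin and not a member, fell too, to 338 ± 7.57 CPM in KO, against 383 ± 8.09 CPM in WT (log2 fold change −0.18, adjusted p = 0.00101 by edgeR). With effective length in the fit LMNB2 stood at −0.11 (adjusted p = 0.167), and with length and GC offsets at −0.099 (0.0167). LMNA made up 9.49% ± 0.68 of the summed lamin TPM in KO and 7.53% ± 0.49 in WT (SD, n = 3 each). The groups did not overlap and the two-sided exact permutation p was again 0.1 (0.5 adjusted over 5 shares).

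LMNA and NES both lie on chromosome 1, where many genes were higher in KO cells. Of 59 other tested genes within 1 Mb of LMNA, 29 rose and 0 fell, with a median log2 fold change of 0.18, and of 37 near NES 20 rose and 0 fell, with a median of 0.22. LMNA and NES lie within 1 Mb of each other, so these windows overlap and the counts are not of separate regions. Over the whole chromosome 564 of 1574 tested genes rose (35.8%, against 12.1% of all genes) and 76 fell. The median was 0.15 on chromosome 1, against 0.0063 for all genes tested. The LMNA value of 0.23 and the NES value of 0.14 stand beside these medians, and the part of this regional shift in the LMNA result was not tested. The neighbours of the other members within 1 Mb had medians between −0.17 and 0.019, the lowest being that of NEFL, whose 6 neighbours include NEFM.

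Promoter sequence was examined for the consensus bound by STAT5 dimers, TTCNNNGAA, which reads alike on both strands. Windows of 250 bases before to 50 bases after the start were read from RefSeq (GRCh38.p14) for 6 members, INA, VIM, NES, KRT8, LMNA and LMNB1. No window of NEFM, NEFL, NEFH or KRT18 was read, so nothing is said here of their promoters. Of their 9 windows 1 held the motif, that of the first LMNB1 start, and of all 35116 windows 7.66% did. LMNB1 has the motif as TTCATGGAA, beginning 160 bases before the start. LMNB2, not a member, was read in addition and is outside the 9 windows. It has TTCTTTGAA, beginning 249 bases before its start. No other family gene outside the members was looked at by name. LMNA, which rose, and INA, NES and KRT8, which were not called, held no match. The 250 bases before the start are shown for these B-type lamins, which fell, and for VIM, which rose and held no match, 5′ to 3′ on the gene's own strand with the motif in capitals. They are chr5:126776373-126776622 (plus strand) for LMNB1, chr19:2456960-2457209 (minus strand) for LMNB2 and chr10:17227991-17228240 (plus strand) for VIM.
LMNB1: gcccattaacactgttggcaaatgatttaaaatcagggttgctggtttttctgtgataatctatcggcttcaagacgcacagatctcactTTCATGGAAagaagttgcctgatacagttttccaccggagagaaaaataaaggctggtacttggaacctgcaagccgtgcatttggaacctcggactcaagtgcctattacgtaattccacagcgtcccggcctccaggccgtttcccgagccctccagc
LMNB2: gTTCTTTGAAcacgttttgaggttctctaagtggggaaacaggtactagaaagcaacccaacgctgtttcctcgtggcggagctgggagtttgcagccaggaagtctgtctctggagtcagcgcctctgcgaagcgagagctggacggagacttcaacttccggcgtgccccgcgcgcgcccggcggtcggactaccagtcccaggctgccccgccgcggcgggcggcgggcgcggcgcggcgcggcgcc
VIM: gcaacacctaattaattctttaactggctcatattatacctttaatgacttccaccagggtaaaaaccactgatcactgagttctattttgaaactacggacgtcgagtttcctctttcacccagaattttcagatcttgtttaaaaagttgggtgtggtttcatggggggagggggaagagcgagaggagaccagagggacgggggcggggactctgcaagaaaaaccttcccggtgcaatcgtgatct
A match describes the letters only, binding was not measured, and a link between match and change was not tested.

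Most of the remaining family had few or no counts in these cells. Of 62 other intermediate filament genes, 8 were tested, and 42 had 0 counts in all 6 libraries. Among 52 keratins outside the members only KRT10 passed the filter, and 50 had at most 3 counts over the 6 libraries. By edgeR 0 of the 8 rose and 2 fell, LMNB2 and IFFO1, an orphan member of the family (25.0% called, near the 23.4% of all genes, median log2 fold change −0.057). Before adjustment 0 were higher at p under 0.05, as were 0 in limma-voom and DESeq2 after it. IFFO1 had 23.1 ± 1.16 CPM in KO and 27.7 ± 0.74 CPM in WT (SD, n = 3 each). IFFO1 thus differed by a log2 fold change of −0.26 (SE 0.064, adjusted p = 0.00988 by edgeR, and 0.0833 with effective length in the fit).

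More genes that anchor filaments to junctions and other fibres fell than rose. Of 12 cytolinkers and desmosome genes 9 were tested, 1 rose and 5 fell, which is 66.7% called against 23.4% of all genes, with a median log2 fold change of −0.18. DSP, the desmoplakin that ties keratin to desmosomes, fell to 235 ± 1.09 CPM in KO, against 304 ± 7.30 CPM in WT (log2 fold change −0.37, SE 0.031, adjusted p = 3.75e-06 by edgeR). PLEC, the giant linker plectin, fell by 0.51 on the log2 scale and JUP, plakoglobin, by 0.47 (adjusted p = 1.87e-05 and 1.80e-04 by edgeR). JUP lies within 1 Mb of STAT5B on chromosome 17, and the part of its position in this value was not tested. PKP2, a plakophilin of desmosomes, rose by 0.21 (adjusted p = 0.00765 by edgeR, and 0.162 by limma on log2(TPM + 1)). DSP, PLEC and JUP passed in 16 of 16 alternatives each, which leave out the test against a 1.2-fold change. Length and GC offsets, however, brought DSP to −0.21 and PLEC to −0.19 on the log2 scale.

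**Figure D5:**
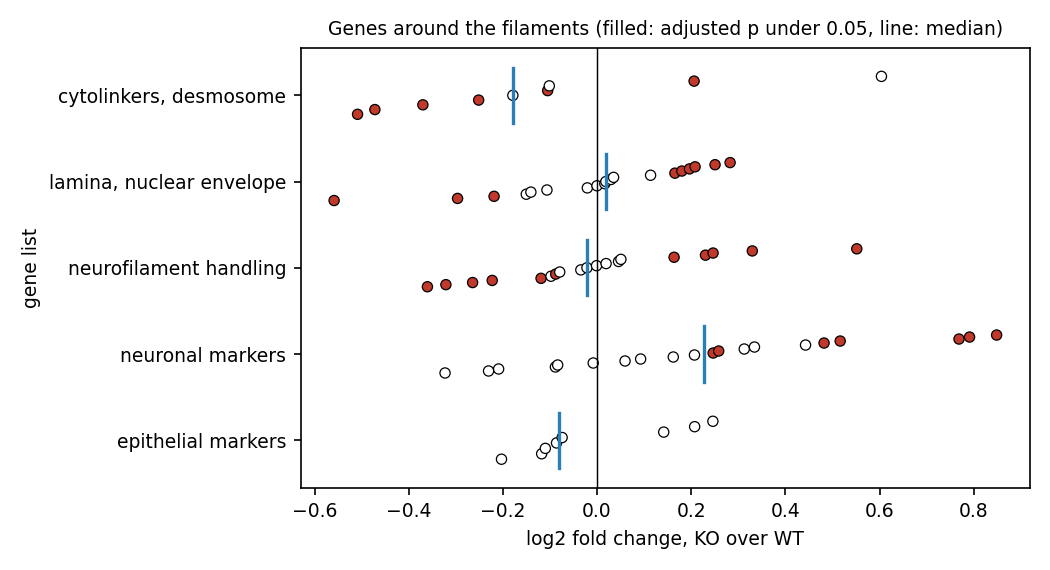
Log2 fold change (KO over WT) of each tested gene in 5 lists, filled where edgeR gave an adjusted p of less than 0.05, with a line at the list median. Cytolinkers have a median of −0.18 and neuronal markers of 0.23, while the nuclear envelope and neurofilament handling lists spread to both sides of 0.

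Partners of the lamins moved in both directions, with 6 of 19 tested genes higher, 3 lower and a median log2 fold change of 0.019 (47.4% called against 23.4% of all genes). LBR, the receptor that tethers B-type lamins, rose to 486 ± 10.3 CPM in KO, against 408 ± 4.70 CPM in WT (log2 fold change 0.25, SE 0.031, adjusted p = 6.64e-05 by edgeR). ZMPSTE24, the protease that trims prelamin A, rose by 0.18 and BANF1, a chromatin bridge to the envelope, by 0.20 (adjusted p = 0.00138 and 0.00140 by edgeR). On log2(TPM + 1) they stood at 0.067 and 0.12 (limma adjusted p = 0.294 and 0.0888), and length and GC offsets gave 0.12 for BANF1. ZMPSTE24 also missed the threshold with effective length in the fit (0.14, adjusted p = 0.0582). ICMT, the methyltransferase of farnesylated lamins, fell by 0.30 on the log2 scale (adjusted p = 3.14e-05 by edgeR). SYNE2, a nesprin that links the envelope to the cytoskeleton, fell by 0.56 and SUN2, its inner membrane partner, by 0.22 (adjusted p = 1.46e-04 and 0.0167 by edgeR). With effective length in the fit neither passed (0.284 and 0.185), SYNE2 standing at −0.33 there and at −0.30 with length and GC offsets. SUN2 also missed the threshold without KO replicate 1 or 2 or WT replicate 1 (0.0757, 0.0595 and 0.0775). Of the 6 that rose 3 lie on chromosome 1, LBR and ZMPSTE24 among them, and so does ICMT.

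Genes that transport, phosphorylate or degrade neurofilaments were split, with 5 of 19 tested genes higher, 6 lower and a median log2 fold change of −0.021 (57.9% called against 23.4% of all genes). HSPB1, a small heat shock protein that binds neurofilaments, rose to 41.4 ± 3.09 CPM in KO, against 28.3 ± 0.54 CPM in WT (log2 fold change 0.55, SE 0.063, adjusted p = 3.76e-05 by edgeR). CAPN2, a calcium-dependent protease, and MAPK3, a kinase of the ERK pathway, rose by 0.33 and 0.23 (adjusted p = 8.67e-05 and 0.00278 by edgeR), and on log2(TPM + 1) neither passed (limma adjusted p = 0.0740 and 0.0846). CAPN2 lies on chromosome 1. DYNC1H1, the dynein heavy chain of retrograde transport, fell by 0.32 on the log2 scale and MYO5A, a myosin motor that binds neurofilaments, by 0.36 (adjusted p = 8.88e-05 and 9.27e-05 by edgeR). MYO5A missed the threshold on log2(TPM + 1) (limma adjusted p = 0.0669) and stood at −0.22 with length and GC offsets. Without WT replicate 3 only 2 of the 19 fell, without WT replicate 1 there were 3 rises and 3 falls, and without KO replicate 1, KO replicate 3 or WT replicate 2 there were 3 rises.

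Markers of neurons, the cells for which neurofilaments are best known, rose where they passed the test. Of 28 markers 20 were tested, 7 rose and 0 fell by edgeR (35.0% called against 23.4% of all genes, median log2 fold change 0.23), while 2 were lower at p under 0.05 before adjustment and DESeq2 and limma-voom called 0 lower. Without KO replicate 1 or without WT replicate 2, 1 marker fell. SYP, the synaptic vesicle protein synaptophysin, rose to 51.2 ± 4.31 CPM in KO, against 29.6 ± 1.69 CPM in WT (log2 fold change 0.79, SE 0.068, adjusted p = 4.19e-06 by edgeR). TUBA1A, an alpha-tubulin of young neurons, and ENO2, the neuronal enolase, rose by 0.48 and 0.77 (adjusted p = 1.49e-06 and 1.87e-05 by edgeR). The summed level of the list was 997 to 1026 CPM in KO and 855 to 857 CPM in WT. The part of this list in the NEFM value was not tested.

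Markers of epithelia and mesenchyme, the cell types of keratin and vimentin, are read here against the 23.4% of all genes that were called. Of 8 tested epithelial markers 0 rose and 0 fell by edgeR, DESeq2 and limma-voom, with 0 higher and 1 lower at p under 0.05 before adjustment and a median log2 fold change of −0.080. Without WT replicate 3, 1 epithelial marker fell. Their summed level was 137 to 144 CPM in KO and 146 to 149 CPM in WT. Of 13 tested mesenchymal markers 1 rose and 2 fell (23.1% called, near the 23.4% of all genes, median 0.018), 2 rising without KO replicate 1. Their summed level was 236 to 246 CPM in KO and 247 to 252 CPM in WT. ACTA2, smooth muscle actin, rose to 3.98 ± 0.47 CPM in KO, against 1.91 ± 0.16 CPM in WT (log2 fold change 1.06, SE 0.200, adjusted p = 0.00163 by edgeR). CDH2, N-cadherin, fell by 0.25 on the log2 scale (adjusted p = 0.00107 by edgeR). SPARC, a matrix glycoprotein, had 1 count over the 3 KO libraries and 252 over the 3 WT libraries, a WT over KO ratio of 247 (95% exact counting interval 43.9 to 9790, which covers counting error only).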

How the data were processed

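The deposited tables, 1 per library, give for each gene a length, an effective length, TPM and an estimated count, per the file headers. The estimated counts deposited by the authors are not scaled and 7.12% to 7.64% of values were not whole, so they were rounded before count tests. The TPM deposited by the authors sum to 1000000 per library. Per the submitters' processing notes the build was hg38, and FastQC, fastp, DRAGEN and Picard were among the tools, their roles unstated. Neither annotation release nor strand use is given in the sources used here. Symbols came from a name table, with 60340 of 60609 identifiers matched, and positions from GENCODE release 29 on the same build.

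All genes were fitted with edgeR 4.0.16 in R 4.3.3 (filterByExpr with a minimum count of 10 and minimum total of 15, TMM scaling, quasi-likelihood F test, Benjamini-Hochberg over 15958 genes, threshold 0.05). Fold changes are KO over WT. Other fits used DESeq2 1.42.0, RLE scaling, limma-voom (limma 3.58.1), other low-count filters, length offsets, limma on log2(TPM + 1) or log2(TPM + 0.1), a replicate block, a test against a 1.2-fold change and leaving out each library. Offsets for length and GC content were added after seeing the data. The 16 alternatives counted for single genes leave out the test against a 1.2-fold change. The main fit, RLE scaling, DESeq2, limma-voom and limma on log2(TPM + 1) were tried on simulated data. So were both kinds of offsets and the replicate block, but not the remaining fits. Replicates differed by more than sampling noise (chi-square per degree of freedom 2.45 to 7.50). Shares used a two-sided exact permutation test over libraries. The members and lists were chosen with earlier results of these data known. The text names all members, the genes nearest NEFM, and up to 3 called genes per direction and list by smallest p (all where at most 5 were called). A few genes that this rule or the marker lists hold are not reported here by name.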

Additional observations from a re-analysis of the deposited data

How the results depend on the processing

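Over all genes, 1924 were higher and 1818 lower in KO (51.4% of calls higher). On log2(TPM + 1) the counts were 488 and 1135 (30.1% higher), on log2(TPM + 0.1) 483 and 1139, with effective-length offsets 891 and 843, and against a 1.2-fold change 155 and 140. The median log2 fold change of all genes tested was −0.059 on log2(TPM + 1) and −0.067 on log2(TPM + 0.1), against 0.0063 in the main fit. Values of single genes on the TPM scales are to be read beside these medians. The NEFM value moved by over its spread between replicates under none of the 16 alternatives.

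Of the other 9 members, 2 higher became 0 on both TPM scales and with effective-length offsets, 1 with length and GC offsets, and 1 to 2 leaving out a library. Signs turned for NEFL on log2(TPM + 1) and log2(TPM + 0.1) (−0.034 each), for INA with effective-length offsets (−0.0056), on the TPM scales (−0.071 and −0.072) and without WT replicate 2 (−0.030 to 0.069 leaving out a library), and for KRT18 with RLE scaling (−1.77e-04), DESeq2 (−1.43e-05), effective-length offsets (−0.0020), length and GC offsets (−0.022), the TPM scales (−0.070 and −0.071) and without KO replicate 3, WT replicate 1 or WT replicate 2 (−0.029 to 0.041 leaving out a library). None of these values was called. The STAT5B log2 fold change was −0.14 in DESeq2 and with no low-count filter (adjusted p = 0.0759 and 0.0620), −0.24 with effective-length offsets, −0.30 on both TPM scales, −0.14 with the replicate block (0.0554), −0.10 with length and GC offsets, and −0.17 to −0.12 leaving out a library, where 5 of the calls ended.

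Among the lists, the 2 other family genes called lower became 0 with effective-length offsets. The 1 higher cytolinker became 0 on both TPM scales. The lamin partners, 6 higher and 3 lower, became 2 and 1 with effective-length offsets and 1 and 1 on both TPM scales. The neurofilament handling genes, 5 higher, became 3 with RLE scaling, DESeq2, limma-voom or effective-length offsets and 1 on both TPM scales. Their 6 lower became 3 with effective-length or length and GC offsets and on both TPM scales. Leaving out a library gave 3 to 4 higher and 2 to 4 lower. It gave 0 to 1 lower neuronal, 0 to 1 lower epithelial and 1 to 2 higher mesenchymal markers, and no low-count filter gave 2 higher mesenchymal ones.

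The NEFL share of NEFL and INA differed by 0.66 percentage points, and by −0.39 to 1.78 leaving out a library. The KRT8 share differed by −1.11, and by −2.77 to 0.088.

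Deviations of same-numbered replicates correlated at 0.0038, 0.104 and 0.0415 over genes, and those of differently numbered ones at −0.098 to 0.052. The largest of all was that of replicate 2 in KO and WT. Whether same-numbered libraries share a batch was not tested. With a replicate block 1887 genes were higher and 1773 lower, with 2 higher and 1 lower among the 9 members. Depth limits NEFH (15 to 35 counts per library) and NES (44 to 64).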
